A study of Mus musculus with 115 samples.

Results

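The 9 endothelial markers Pecam1, Cdh5, Kdr, Flt1, Tek, Tie1, Eng, Emcn and Vwf, together with the growth factor gene Vegfa, were followed across prostate libraries of transgenic F2 mice, 1 library a mouse. The 10 genes were found by matching their symbols to Ensembl mouse identifiers, and all 10 were present among the 45699 genes of the expression table. Each was compared with Mki67, a gene of dividing cells, Chga, a gene of neuroendocrine cells, and Col1a1, a collagen gene of fibroblasts. The genes were named by symbol and not by a cut on their values, but they were chosen with earlier results of these data known.

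Endothelial cells line blood and lymph vessels. VEGF-A, the product of Vegfa, is secreted by many cell types and is induced when oxygen is low. It acts on endothelial cells through the receptors KDR (VEGFR2), which carries most of the growth signal, and FLT1 (VEGFR1), which binds the ligand tightly and signals weakly. TIE1 and TEK (TIE2) are the receptors of the angiopoietin system, which governs vessel stability. In mouse prostate tumors, vessel growth accompanies progression, and RNA of the endothelial markers serves in whole tissue as a measure of vascular content.

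All libraries were made from total RNA of prostate tissue of (TRAMP x WSB/EiJ) F2 males that carried the TRAMP transgene. The paper took organ weight as tumor burden and did not check by pathology that tumor was present. It gave as its basis earlier work of its authors, in which this weight was closely correlated with cancer. TRAMP directs the SV40 T antigens to the prostate epithelium from an androgen-responsive promoter, and all libraries are labelled as transgene positive, with no transgene-negative group beside them. The transgene itself was not measured here. The transgene came from C57BL/6J dams, and the other parental strain, WSB/EiJ, is wild-derived. The labels put all libraries in 1 group, each under the name of a different mouse, and for small prostates the tissue came from the ventral lobe. The age, tumor burden and genotype of each mouse were not used here.

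Expression was given as TPM (transcripts per 1000000), a share of the RNA of a library that is corrected for transcript length and keeps no sequencing depth, so counting error cannot be given. A library had 10358 to 15824 genes at 1 TPM or more, and the 20 genes with the largest shares took 48.9% to 81.8% of the TPM, with a median of 66.3%. Their share lowers the TPM of all other genes together. All values were therefore also rescaled after those 20 genes were left out. No 2 libraries were copies of each other (highest r = 0.974).

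The libraries fell into 2 parts on the first principal component of log2(TPM + 1), which held 48.7% of the variance of the 14623 genes that averaged 1 TPM or more. The larger part held 79 libraries and the smaller part 36. The same libraries were assigned when the genes of all lists were left out. Mki67 had a median of 4.23 TPM in the larger part (0.39 to 25.73) and of 83.47 TPM in the smaller part (20 to 144.47). Chga had medians of 0.3 and 57.19 TPM, and the summed TPM of 6 prostate luminal genes medians of 8410 and 75.94. The parts come from expression and not from the labels, so relations were measured within each part and the parts were not tested against each other. Within the smaller part 4 libraries, W1050, W1118, W1790 and W1915, stood apart. They held Chga at 0.15 to 2.55 TPM, against 21.15 to 479.05 TPM in the other 32, and the relations of the members in the smaller part are given with and without them. In such bulk tissue, fewer endothelial cells and less RNA of these genes per cell cannot be told apart.

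Because most of the markers moved together, the sequences before their starts are shown for 2 members of the VEGF receptor family, for Emcn, which stood apart in the larger part, and for Vegfa. RefSeq promoter windows (GRCm38.p6) were held for 7 of the 10 genes, and the 250 bases before the start are printed 5′ to 3′ on the strand of the gene. Capitals mark GGAAG or its reverse complement CTTCC, the core that factors of the ETS family bind. ETS factors such as ERG and FLI1 act at many endothelial genes.
Kdr, chr5:75978456-75978705, minus strand: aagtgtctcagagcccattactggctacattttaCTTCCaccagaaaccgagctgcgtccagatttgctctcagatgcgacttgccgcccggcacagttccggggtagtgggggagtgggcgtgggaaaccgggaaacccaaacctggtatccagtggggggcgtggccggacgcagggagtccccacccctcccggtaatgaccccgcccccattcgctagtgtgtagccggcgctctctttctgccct
Flt1, chr5:147726012-147726261, minus strand: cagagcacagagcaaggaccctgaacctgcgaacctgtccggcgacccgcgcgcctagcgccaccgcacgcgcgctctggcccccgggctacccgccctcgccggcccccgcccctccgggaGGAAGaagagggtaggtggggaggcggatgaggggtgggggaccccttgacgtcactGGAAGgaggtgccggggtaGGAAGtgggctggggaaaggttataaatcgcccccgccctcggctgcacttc
Emcn, chr3:137340828-137341077, plus strand: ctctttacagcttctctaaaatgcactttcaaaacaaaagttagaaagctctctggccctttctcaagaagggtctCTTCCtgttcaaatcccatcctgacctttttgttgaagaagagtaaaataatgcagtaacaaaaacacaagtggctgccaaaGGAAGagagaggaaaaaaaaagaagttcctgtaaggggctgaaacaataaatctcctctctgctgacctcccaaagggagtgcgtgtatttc
Vegfa, chr17:46032378-46032627, minus strand: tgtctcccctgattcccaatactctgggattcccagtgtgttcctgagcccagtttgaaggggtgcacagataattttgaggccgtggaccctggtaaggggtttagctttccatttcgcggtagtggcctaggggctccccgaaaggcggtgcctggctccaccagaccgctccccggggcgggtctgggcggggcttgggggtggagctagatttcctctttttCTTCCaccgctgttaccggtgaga
Counted back from the start, the core began at -216 in Kdr, at -128, -71 and -52 in Flt1, at -174 and -92 in Emcn and at -24 in Vegfa. It was held by 6 of the 7 genes with a window (not by Tek), and by 64.1% of 32851 promoters of the same length, so most promoters hold it. The core ACGTG, which hypoxia-inducible factors bind, was in 16.6% of all promoters. Sequence farther upstream was not searched, and on either strand this core was in none of the 4 printed windows. A second RefSeq window of Vegfa, chr17:46025164-46025413 on the minus strand, held it at -211. The start of that second window is 7206 bases from the GENCODE start of Vegfa, so the window lies within the gene and not before it.

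The genes lie on 8 chromosomes (GRCm38, GENCODE M21), Pecam1 at chr11:106654217-106750628, Cdh5 at chr8:104101625-104144511, Kdr at chr5:75932827-75978458, Flt1 at chr5:147561604-147726011, Tek at chr4:94739289-94874976, Tie1 at chr4:118471191-118490061, Eng at chr2:32646595-32682669, Emcn at chr3:137341067-137432185, Vwf at chr6:125546774-125686679 and Vegfa at chr17:46016993-46032369. All 10 genes were measured above 0 TPM in every library, and their levels are shown by part in the plot of TPM by gene. Vegfa was the highest, with a lowest value of 6.63, a median of 17.14 and a highest value of 46.95 TPM in the larger part, and 16.3, 54.97 and 253.55 TPM in the smaller part. The ranges of the parts overlapped, and the difference was not tested. The adhesion molecule Pecam1 (CD31), on endothelial cells, platelets and some leukocytes, ranged from 0.8 over 5.47 to 34.58 TPM in the larger part and from 0.71 over 4.175 to 21.84 TPM in the smaller. Cdh5 (VE-cadherin), the cadherin of endothelial junctions, ranged from 0.26 over 1.59 to 13.56 TPM and from 0.06 over 1.935 to 14.92 TPM. For these and for every other member the ranges of the parts overlapped.

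**Figure D1:**
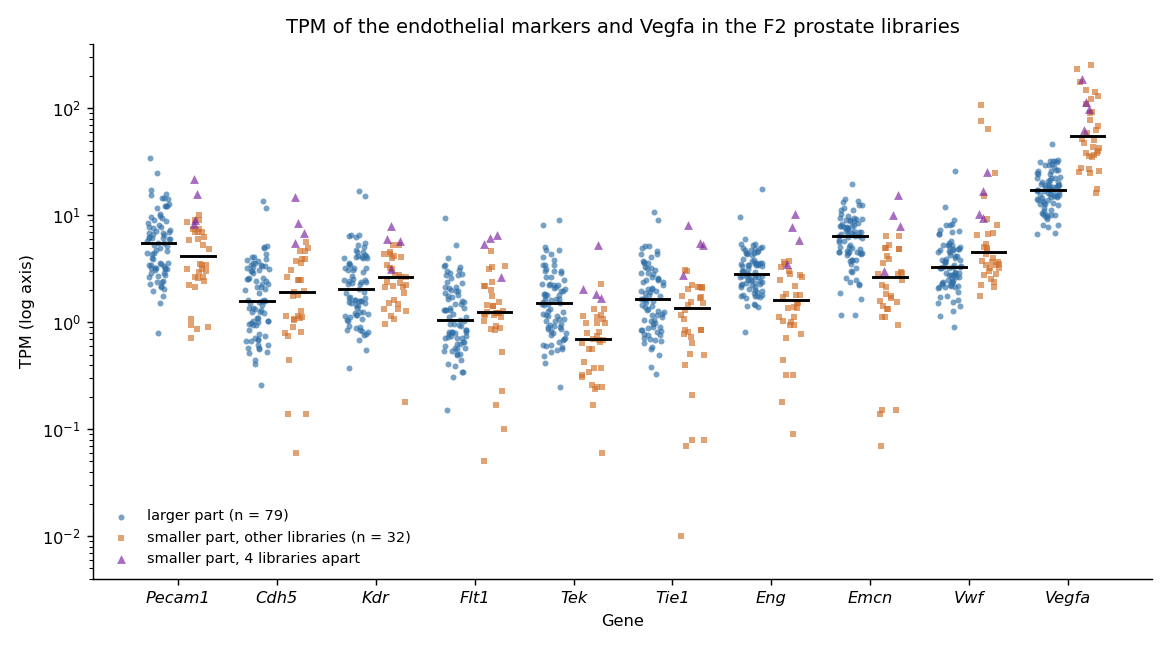
TPM on a log axis of the 9 endothelial markers and Vegfa in all libraries, 1 point per library. Black bars are the medians of the larger (n = 79) and the smaller part (n = 36), and triangles are the 4 libraries that stood apart within the smaller part, where Cdh5 was 5.51 to 14.92 TPM. Vwf reached 108.25 TPM and Vegfa 253.55 TPM in the smaller part.

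Among the receptors of VEGF-A, Kdr ranged from 0.37 over 2.05 to 16.88 TPM in the larger part and from 0.18 over 2.65 to 7.89 TPM in the smaller. Flt1 ranged from 0.15 over 1.06 to 9.37 TPM and from 0.05 over 1.26 to 6.61 TPM. Of the angiopoietin receptors, Tek ranged from 0.25 over 1.51 to 9.03 TPM and from 0.06 over 0.695 to 5.29 TPM. Of these 3 receptor genes, Tek had a median below 1 TPM in the smaller part. Tie1, the orphan partner of Tek, ranged from 0.33 over 1.64 to 10.68 TPM and from 0.01 over 1.375 to 8.08 TPM. Eng (endoglin), a co-receptor of the TGF-beta family, ranged from 0.82 over 2.84 to 17.56 TPM and from 0.09 over 1.625 to 10.38 TPM. Eng shares 61 exon bases with Fpgs on the other strand, and since use of strand in the counting is not stated, reads of that stretch cannot be assigned.

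The sialomucin Emcn (endomucin), found on capillary and venous endothelium, had the highest median of the markers in the larger part, ranging from 1.16 over 6.45 to 19.82 TPM. In the smaller part it ranged from 0.07 over 2.645 to 15.59 TPM. Vwf (von Willebrand factor), the clotting protein that endothelial cells and megakaryocytes make, ranged from 0.9 over 3.29 to 26.23 TPM and from 1.76 over 4.565 to 108.25 TPM. Summed over the 9 markers, the level was 26.95 TPM at the median of the larger part (7.09 to 147.1) and 24.36 TPM at that of the smaller (4.67 to 120.1).

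Ordered by the median over all libraries, Vegfa was followed by Pecam1, Emcn, Vwf, Eng, Kdr, Cdh5, Tie1, Flt1 and Tek. Vegfa exceeded Pecam1 in 75 of the 79 libraries of the larger part and in 36 of the 36 of the smaller. Pecam1 exceeded Emcn in 40 of the 79 and 36 of the 36, and Kdr exceeded Cdh5 in 68 of the 79 and 24 of the 36. Several neighbours changed places between the parts. Emcn was above Vwf in 62 of the 79 libraries but in 3 of the 36, Eng above Kdr in 61 but in 9, Tie1 above Flt1 in 69 but in 11, and Flt1 above Tek in 17 but in 28. Vwf exceeded Eng in 51 and 34 libraries, and Cdh5 exceeded Tie1 in 39 and 35.

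The extremes were shared by few libraries. W4165 had the lowest value of the larger part for 8 of the 9 markers, with Cdh5 at 0.26 and Kdr at 0.37 TPM, and the 20 genes with the largest shares took 81.78% of its TPM. W4548 had the highest value for 5 of the 9, with Pecam1 at 34.58, Vwf at 26.23 and Col1a1 at 645.3 TPM. In the smaller part W1790, 1 of the 4 libraries apart, was highest for 7 of the 9. The lowest values there were in W1514 for 4 of the 9, in W4202 for 3 and in W1103 for 2. In that order Col1a1 was 0.26, 0.82 and 0.23 TPM and Mki67 132.58, 85.98 and 116.13 TPM, and these low libraries were not left out as a set. Cdh5 was 8.54, 6.78, 14.92 and 5.51 TPM in W1050, W1118, W1790 and W1915, and Col1a1 177.66, 294.32, 308.3 and 112.02 TPM. Each of these Cdh5 values was above the median of the part, and the part of these libraries in each relation is shown by leaving them out.

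In the larger part 7 of the markers, Pecam1, Cdh5, Kdr, Flt1, Tek, Tie1 and Eng, rose and fell together with Vwf. Over the 28 pairs of these 8 genes r was 0.837 to 0.974 with a median of 0.914 (n = 79), and 0.758 to 0.97 after rescaling. These values describe the same libraries and share their scaling. Tested against Cdh5 with limma over all genes, the other 7 of the 8 were called, with r from 0.875 for Vwf to 0.962 for Kdr (adjusted p from 5.2e-24 to 3.71e-41). Their rho was 0.855 to 0.955, their permutation p was 1e-05 in each case, the smallest that 100000 permutations can give, and r was 0.844 to 0.949 after the 2 libraries with the most extreme Cdh5 were left out. Of all genes tested, 73.1% were called with a positive and 2.01% with a negative slope on Cdh5, and the median r over all genes was 0.41, so being called is no distinction here while the size of r is far above that median. After rescaling the calls split into 9568 positive and 2061 negative.

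In the smaller part the same 7 markers and Emcn were correlated with r of 0.686 to 0.966 over 28 pairs (n = 36), and of 0.499 to 0.968 without the 4 libraries apart. Against Cdh5 all 7 of the markers other than Vwf were called, from r = 0.782 for Tek to 0.957 for Pecam1 (limma, adjusted p from 8.89e-07 to 9.39e-16), and 7 of 7 were called without the 4 libraries (r = 0.611 to 0.942). Of all genes, 40.3% were called positive and 9.83% negative with the 4 libraries, and 7.24% and 0.0479% without them. Rescaling split the calls over the 36 libraries into 3782 positive and 1331 negative. In the smaller part Tek was the loosest of the 7, with r = 0.686 to Kdr and 0.691 to Flt1 in the heat map of pairs.

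**Figure D2:**
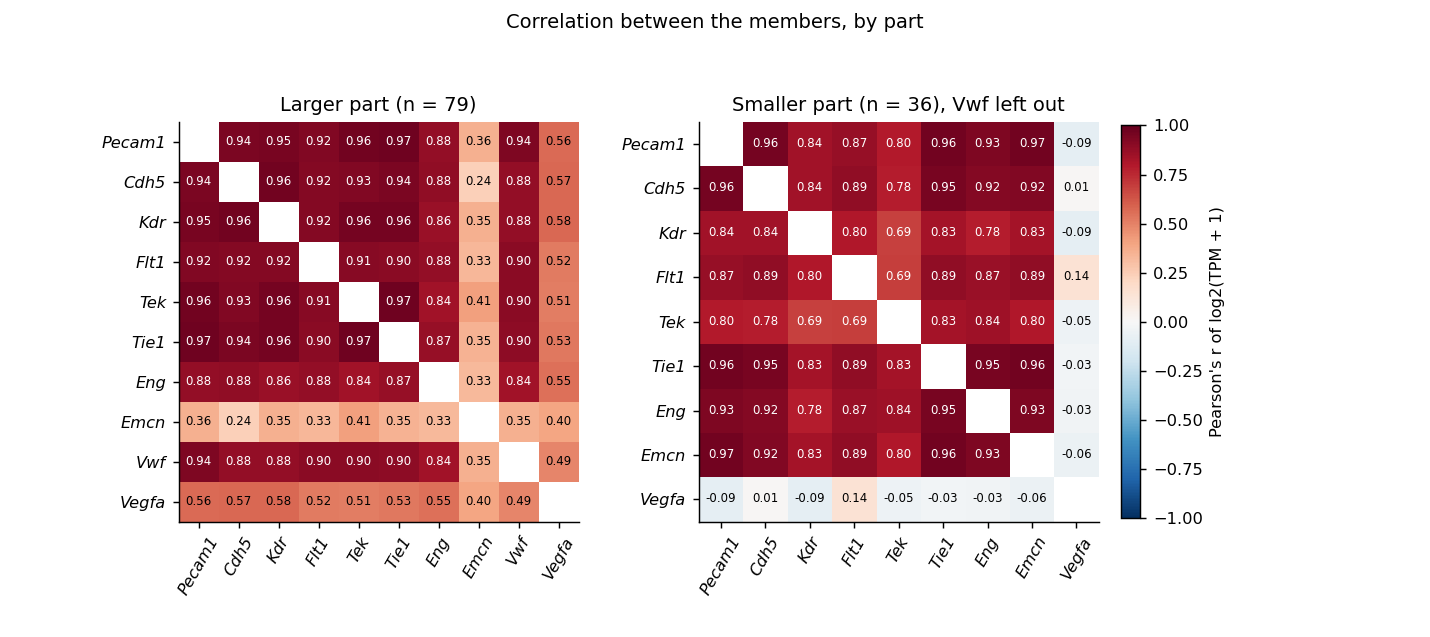
Pearson's r between the members on log2(TPM + 1), in the larger part (left, n = 79) and in the smaller part (right, n = 36, without Vwf, whose values separated there). In the larger part Emcn had r of 0.239 to 0.412 with the other markers, while in the smaller part it had 0.804 to 0.966, and Vegfa had 0.398 to 0.578 with the markers in the larger part and -0.0937 to 0.141 in the smaller.

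Emcn was the exception in the larger part. Its r with the 8 other markers was 0.239 to 0.412, and 0.0618 to 0.261 after rescaling. With Cdh5 it was 0.239 (rho = 0.162, permutation p = 0.0336, limma adjusted p = 0.0425, n = 79). That call was lost after rescaling (r = 0.0618) and without the 2 farthest libraries (r = 0.121), and the sign turned under median-of-ratios scaling (r = -0.0337). Within the 36 libraries Emcn moved with the other 7 markers at r of 0.804 to 0.966, and at 0.728 to 0.965 without the 4 libraries apart. Whether the relation differs between the parts was not tested.

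The genes most like Emcn were picked after their values were seen, and differed in kind between the parts. In the larger part they were Idh1 (r = 0.77), the cytosolic isocitrate dehydrogenase, Got1 (r = 0.759), an aspartate aminotransferase, and Gnb5 (r = 0.75), a G protein beta subunit. Of these Idh1 had a median of 41.6 TPM there. Over the smaller part they were Esam (r = 0.951), an adhesion molecule of endothelial junctions, Col4a1 (r = 0.945), a collagen of basement membranes, and Cd93 (r = 0.942), an endothelial surface receptor. Beside this, Emcn had r of 0.376 with the luminal secretory gene Tgm4 in the larger part, where Cdh5 had -0.389. The part of the epithelial content in the values of Emcn was not tested.

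Vwf was the exception in the smaller part, where its values separated into 28 libraries at 1.76 to 9.37 TPM and 8 at 10.36 to 108.25 TPM. Its r was not pooled over the 36 libraries, and values over the 32 without the libraries apart still join 27 of the low with 5 of the high libraries. The 8 were W370 at 108.25, W4419 at 76.69, W1182 at 64.27, W1050 at 25.69, W4417 at 25.03, W1118 at 17.04, W4120 at 15.29 and W1915 at 10.36 TPM. Cdh5 in these 8 was 1.1, 2.46, 4.65, 8.54, 3.59, 6.78, 1.97 and 5.51 TPM in the same order, so the library with the most Vwf had the least Cdh5 of the 8. Within the 28, r of Vwf with the 8 other markers was 0.501 to 0.697, and within the 8 it was -0.56 to -0.193. These are descriptions over few libraries, and 3 of the 8 are among the 4 libraries apart.

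**Figure D3:**
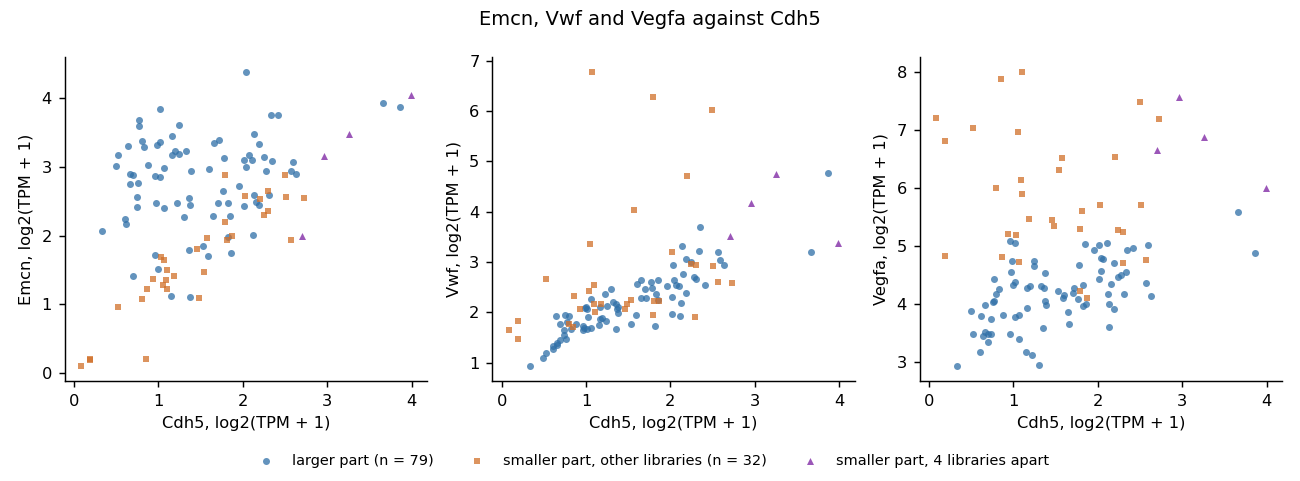
Emcn (left), Vwf (middle) and Vegfa (right) against Cdh5, each as log2(TPM + 1), 1 point per library. In the larger part (circles, n = 79) Vwf follows Cdh5 (r = 0.875), Emcn does so weakly (r = 0.239) and Vegfa in between (r = 0.573). Among the 36 libraries (squares and triangles, n = 36) Emcn follows Cdh5 (r = 0.922), Vwf does not follow it in a group of high libraries, and r of Vegfa is 0.00937.

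The high Vwf values went with epithelial genes, which were named after their values were seen. Krt8, a keratin of luminal epithelium, was 138.24 to 630.5 TPM in the 8 libraries and had a median of 1.675 TPM in the 28 (0.14 to 525.95). Scnn1a, which encodes the alpha subunit of the epithelial sodium channel, was 3.15 to 33.17 TPM in the 8 and 0.14 to 3.92 TPM in the 28. Within the 28 alone r of Vwf was 0.607 with Krt8 and 0.624 with Scnn1a. Scnn1a ends 201831 bases before the start of Vwf on chromosome 6 (GRCm38), where Vwf lies at chr6:125546774-125686679. Platelets and megakaryocytes also hold Vwf. Among their genes Pf4 was 3.92 to 16.92 TPM in the 8 (median 4.81) and 0.52 to 46.34 TPM in the 28 (median 2.535), and Ppbp had medians of 0.235 and 0.09 TPM. Gp9 had medians of 0.19 and 0.115 TPM, Itga2b of 1.14 and 1.065 TPM, and Gp1ba of 0.88 and 1.12 TPM, and the ranges of the 8 and the 28 overlapped for each of these genes. The parts of epithelial and platelet RNA in the Vwf values were not tested.

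The fibroblast gene Col1a1 was the comparison gene that the endothelial markers followed. Within the 79 libraries 8 of 9 markers were called positive, with r from 0.536 for Flt1 to 0.631 for Eng (limma, adjusted p from 2.79e-06 to 8.09e-09, n = 79). Emcn was not called (r = 0.0823, adjusted p = 0.533). The rho of the 8 was 0.519 to 0.622, r was 0.441 to 0.559 without the 2 libraries farthest in Col1a1, and 0.468 to 0.564 after rescaling. Of all genes, 53% were called positive and 3.54% negative, with a median r of 0.261 against 0.569 for the markers, and the calls split into 5466 positive and 2509 negative after rescaling.

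For the smaller part the markers followed Col1a1 too, with 8 of 8 called and r from 0.787 for Flt1 to 0.929 for Eng (limma, adjusted p from 1.85e-07 to 1.53e-13, n = 36). Of all genes 44.5% were called positive and 14% negative, with a median r of 0.282 against 0.889, and after rescaling 4740 of 9132 calls were positive. Without the 4 libraries apart, which hold high Col1a1, 8 of 9 were called with r of 0.66 to 0.897, while 21.1% of genes were called positive and 3.24% negative. Vwf was not among them (r = 0.336, adjusted p = 0.125), and that value spans its separate libraries. Other cell types ran beside these markers too. Against Cdh5, 5 of 5 leukocyte genes tested were called in either part (median r = 0.624 and 0.835), and 8 of 8 pericyte genes. Csf1r, the receptor of macrophage growth, had r = 0.721 and 0.875. Of all genes, 73.1% in the larger and 40.3% in the smaller part were called positive with Cdh5, with a median r of 0.41 and 0.263. The part of total stroma in these relations was not tested.

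**Figure D4:**
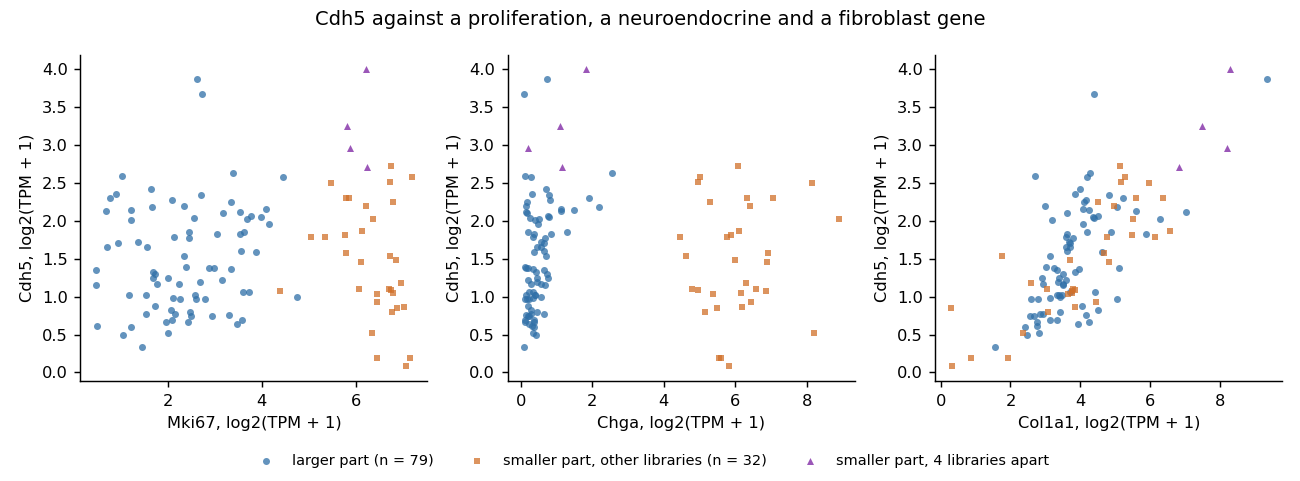
Cdh5 against Mki67 (left), Chga (middle) and Col1a1 (right), each as log2(TPM + 1), 1 point per library. Cdh5 rises with Col1a1 in the larger part (circles, r = 0.609, n = 79) and in the smaller part (squares and triangles, r = 0.87, n = 36), and the 4 libraries apart (triangles) hold little Chga and much Cdh5 and Col1a1.

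The markers had weak or negative relations to Mki67. Over the larger part 0 of 9 markers were called against Mki67 (limma), with r from -0.13 for Emcn to 0.165 for Tie1, and at an unadjusted permutation p under 0.05 there were also 0, the lowest being 0.145. Of all genes, 72.9% were called positive and 1.44% negative there. The median r was 0.13 for the markers and 0.433 for all genes. The sign depended on the scaling, since after rescaling r was -0.339 to -0.0713 for the 9 markers, with Emcn called, while the median over all genes was 0.0763 and the calls split into 5395 positive and 1644 negative. With the share of the 20 most abundant genes as covariate r was -0.434 to -0.271, and 8 of 9 markers (not Cdh5) were called negative, while over all genes 3165 were called positive and 1244 negative with a median r of 0.043. That share was itself correlated with the markers in the larger part, from r = -0.305 for Emcn to -0.602 for Tie1.

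Within the 36 libraries 4 of 8 markers were lower in libraries with more Mki67. These were Tie1 (r = -0.474, adjusted p = 0.0098), Emcn (r = -0.47, adjusted p = 0.01), Eng (r = -0.445, adjusted p = 0.016) and Pecam1 (r = -0.401, adjusted p = 0.0314), all by limma with n = 36. Their r was -0.54 to -0.603 without the 2 farthest libraries, where the median over all genes also fell, to -0.158, with 2933 positive and 4567 negative calls. The other 4 were negative as well, at r from -0.216 for Kdr to -0.337 for Flt1, without a call. Of all genes, 21.6% were called negative and 23.3% positive, and the median r was -0.369 for the markers and -0.0214 for all genes. Without the 4 libraries apart the same 4 were called (r = -0.391 to -0.514), with 21.3% of all genes called negative and 25.4% positive. Vwf was also called among these 32 (r = -0.668), but that value joins its separate groups. As a description, its r with Mki67 was -0.0158 within the 28 low libraries and -0.884 within the 8 high ones. After rescaling 6 of 8 were called, and the calls over all genes split into 7173 positive and 4161 negative, and under median-of-ratios scaling into 3337 and 5553. As deposited, the other proliferation genes had weaker r. Over 6 such genes, Mki67 included, the median r was -0.0496 with Tie1, -0.106 with Emcn, -0.0709 with Eng and -0.0442 with Pecam1, and Mki67 had the lowest r of the 6 in each case. After rescaling these medians were -0.389, -0.386, -0.39 and -0.327.

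Against Chga the outcome rested on the 4 libraries apart. Over the smaller part 5 of 8 markers were called negative, Eng (r = -0.513), Tie1 (r = -0.478), Cdh5 (r = -0.475), Flt1 (r = -0.469) and Tek (r = -0.458), with limma adjusted p from 0.0059 to 0.0194. Of all genes 24.2% were called negative and 9.95% positive, a split of 3892 positive to 2717 negative after rescaling. By rank the relation was slight, with rho of -0.244 to -0.0774. Without the 4 libraries none of the 9 markers was called by limma, 0 were below an unadjusted permutation p of 0.05, and r was positive, from 0.0526 for Kdr to 0.246 for Emcn, while 9.1% of genes were called positive and 0.198% negative.

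For the larger part Chga itself separated into 72 libraries and 7 with more of it. Within the 72, 0 of 9 markers were called by limma, with r from 0.0742 for Emcn to 0.297 for Pecam1 (adjusted p = 0.285). An unadjusted permutation p under 0.05 was seen for 7 of 9, but the share of all genes under that threshold was not computed. The median r was 0.245 for the markers and 0.128 for all genes. Of all genes 0.869% were called positive and 0% negative, and after rescaling 261 positive and 64 negative. In the 7 libraries Cdh5 was 2.61 to 5.2 TPM, and no gene was called by limma, although Cdh5 had an unadjusted exact permutation p of 0.0286 (r = 0.77, n = 7) and was the only marker under 0.05.

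Vegfa followed the markers in the larger part. All 9 were called, with r from 0.398 for Emcn to 0.578 for Kdr (limma, adjusted p from 0.000622 to 5.93e-07, n = 79). With the receptor genes Kdr and Flt1 r was 0.578 and 0.522. Here too most genes moved one way, since 76.5% of all genes were called positive and 0.226% negative with a median r of 0.356, against 0.529 for the markers. After rescaling the median over all genes fell to 0.0635 and that of the markers to 0.385, 6 of 9 were called, and the calls split into 717 positive and 95 negative. The relation of Vegfa to the markers was therefore smaller once the 20 genes were left out, and was still above that of a typical gene. Against Col1a1 r of Vegfa was 0.275 (adjusted p = 0.0265) and 0.125 after rescaling, and against Mki67 it was 0.168 (adjusted p = 0.165).

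Among the 36 libraries 0 of 8 markers were called against Vegfa by limma, with r from -0.0937 for Kdr to 0.141 for Flt1 and a lowest unadjusted permutation p of 0.413. Of all genes 0.294% were called positive and 0.0137% negative. Without the 4 libraries apart, r was -0.306 to -0.0554 for the 9 markers and again 0 were called, with 0.219% of genes positive and 0.0137% negative. At n = 36 simulated relations with r = 0.4 were found in 10 of 100 genes and those with r = 0.7 in 92 of 100, so a moderate relation could be missed. Against Col1a1 r of Vegfa was -0.149 over the 36 libraries (limma adjusted p = 0.444), and 0.0503 without the 2 farthest. Without the 4 libraries it was -0.418 (limma adjusted p = 0.0514), and -0.238 when the 2 farthest were left out too. After rescaling it was -0.323 over the 36 without a call, and -0.463 without the 4 libraries with a call. Whether the relation of Vegfa to the markers differs between the parts was not tested.

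Some of the hypoxia response genes were called with Vegfa in each part. For the smaller part 6 of 18 were called, Kdm3a (r = 0.746), a histone demethylase, P4ha1 (r = 0.732), a collagen prolyl hydroxylase, Bnip3 (r = 0.71), a mitophagy receptor, Ankrd37 (r = 0.658), Egln1 (r = 0.619), the oxygen-sensing prolyl hydroxylase, and Pdk1 (r = 0.603), with limma adjusted p from 0.000474 to 0.0252. The median r of the 18 was 0.488, beside 0.0854 for all genes, of which 0.294% were called positive and 0.0137% negative. Without the 4 libraries 4 were called and the median was 0.475, beside 0.219% of all genes called positive and 0.0137% negative. After rescaling 4 were called and the median was 0.403, while 26 of all 18705 genes tested were called. Ldha, lactate dehydrogenase A, had r = 0.563 without a call (adjusted p = 0.0644), and Hif1a, whose product is regulated mainly as a protein, r = 0.211 (adjusted p = 0.649).

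Within the 79 libraries 17 of 18 hypoxia genes were called with Vegfa, but so were most genes, 76.5% positive and 0.226% negative. The median r was 0.414 beside 0.356 for all genes. Of all 18720 genes tested after rescaling, 812 were called. After rescaling Bnip3 (r = 0.521, limma adjusted p = 0.000717) and Adm (r = 0.461, adjusted p = 0.00375), the gene of the vessel-dilating peptide adrenomedullin, were called, with a median of 0.196 beside 0.0635. The levels of Bnip3 were 10.24 to 62.91 TPM in the larger part and 15.34 to 282.02 TPM in the smaller.

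**Figure D5:**
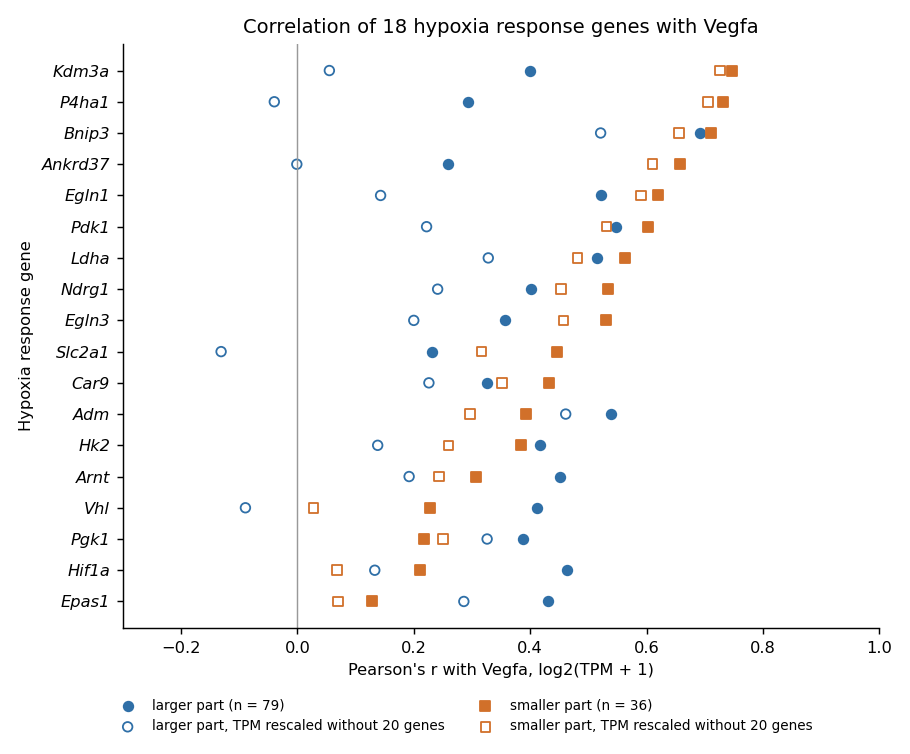
Pearson's r with Vegfa of 18 hypoxia response genes on log2(TPM + 1), in the larger part (circles, n = 79) and the smaller part (squares, n = 36), ordered by r in the smaller part. Open symbols are TPM rescaled without the 20 genes of largest share, which lowered the median r of the list from 0.414 to 0.196 in the larger part and from 0.488 to 0.403 in the smaller.

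Of the 18 hypoxia genes, 14 were called positive with Cdh5 in the larger part, where 73.1% of all genes were (median r = 0.548 beside 0.41). In the 36 libraries 12 were positive, beside 40.3% of all genes, and 1 negative (median r = 0.421 beside 0.263). Of these, 1 was called without the 4 libraries apart, with a median of 0.0516 beside 0.118.

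The counts of other lists against Vegfa in the larger part stand beside 76.5% of all genes called positive. Over the 79 libraries all 5 tested genes of the VEGF system were called, with Nrp1 at r = 0.575, Vegfb at 0.447 and Nrp2 at 0.379, and 3 of 4 of the angiopoietin system, with Angptl4 at 0.584. The other endothelial genes were called in 25 of 25 (median r = 0.499 beside 0.356 for all genes), pericyte genes in 7 of 8, and smooth muscle and proliferation genes in 0 of 5 and 0 of 6. After rescaling, where 812 genes were called in all, 1 of 6 of the VEGF system, 2 of 4 of the angiopoietin system, 15 of 31 other endothelial genes (median r = 0.331 beside 0.0635) and 1 of 8 pericyte genes were positive, and 1 pericyte and 1 smooth muscle gene negative. Over the 36 libraries 0 of the genes of these lists were called by limma.

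The genes most like Vegfa in the smaller part were Ciart (r = 0.826), a repressor of the circadian clock, Gm26762 and Pfkfb3 (both r = 0.817), of which Pfkfb3 makes the activator of glycolytic phosphofructokinase, Seh1l (r = 0.75), a nuclear pore subunit, and Kdm3a (r = 0.746), each over 36 libraries. Over the larger part they were Gm8258 (r = 0.732), Tcaim (r = 0.726), Tmem120a (r = 0.711), Dgat1 (r = 0.705), an enzyme of triglyceride synthesis, and Mfsd8 (r = 0.703), over 79 libraries. No gene was among the 5 in both parts, which for such short lists out of all genes is no result about Vegfa. After rescaling the first 5 of the larger part were C4a (r = 0.655), Palmd, Tcaim, Rgcc and Gm8258. In the smaller part the same 5 genes stayed first.

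The genes most like Cdh5 included known endothelial genes in either part. For the larger part they were Ptprm (r = 0.967), a receptor phosphatase of cell contacts, Hspa12b (r = 0.962), Ptprb (r = 0.956), the phosphatase VE-PTP that acts on VE-cadherin and TIE2, Robo4 (r = 0.951), a guidance receptor of endothelium, and Dlc1 (r = 0.944). Within the 36 libraries they were Cd93 and Esam (both r = 0.947), Adgrf5 (r = 0.943), Lama4 (r = 0.939), a laminin chain of vessel basement membranes, and Adgrl4 (r = 0.938).

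Of 35 other endothelial genes 25 were tested, and in the larger part 25 of 25 were called with Cdh5 (limma, median r = 0.867 beside 0.41 for all genes). The share of all genes called positive was 73.1% there, 40.3% in the smaller part and 7.24% without the 4 libraries apart. By mean TPM the first of them were Egfl7, a secreted protein of vessels (r = 0.92), Cd34 (r = 0.85), Nr2f2, a factor of venous identity also made by stroma (r = 0.626), and Prox1, a factor of lymphatic endothelium (r = 0.237). Over the smaller part 20 were called positive and 1, Ackr1, the chemokine receptor of venules, negative (r = -0.486), with a median of 0.796 beside 0.263. Leaving out the 4 libraries apart, 18 were positive and 0 negative, and Ackr1 had r = -0.225 (adjusted p = 0.503). Prox1 was at 0.02 to 4.9 TPM in the larger part and 14.58 to 66.27 TPM in the smaller, ranges that did not overlap, with r = 0.177 to Cdh5 in the latter (adjusted p = 0.384). The difference was not tested.

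Pericytes wrap small vessels, and 8 of 8 of their genes were called with Cdh5 in the larger part (median r = 0.827 beside 0.41 for all genes). Rgs5, a regulator of G protein signals, had r = 0.938, Pdgfrb, the receptor by which pericytes are recruited, 0.922, Mcam 0.789 and the muscle filament gene Des 0.246. Among the 36 libraries they were 0.762, 0.92, 0.895 and 0.37, again with 8 of 8 called (7 of 8 without the 4 libraries). Of all genes, 73.1% were called positive with Cdh5 in the larger part, 40.3% in the smaller and 7.24% without the 4 libraries.

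Of the other genes of the VEGF system 5 of 6 were tested, and 5 were called with Cdh5 in the larger part. Among them were the co-receptors Nrp1 (r = 0.937) and Nrp2 (r = 0.841) and the ligand gene Vegfb (r = 0.468). The counts of this paragraph stand beside 73.1% of all genes called positive in the larger part, 40.3% in the smaller and 7.24% without the 4 libraries. For the smaller part 2 were called, Nrp2 (r = 0.629) and Pgf, the ligand of FLT1 (r = 0.495), and 0 without the 4 libraries, where the median r was 0.141 beside 0.118 for all genes. Nrp1 was 0.67 to 40.97 TPM in the larger part and 4.65 to 35.68 TPM in the smaller, where its r with Cdh5 was 0.0436 (adjusted p = 0.847). Of the angiopoietin system 4 of 4 were called in the larger part, among them Angptl4 (r = 0.845), the gene of an inhibitor of lipoprotein lipase, Angpt1 (r = 0.79), the agonist of TIE2, and Angpt2 (r = 0.272), its context-dependent antagonist. Within the 36 libraries 3 of 4 were called, Ptprb (r = 0.903), Angptl4 (r = 0.837) and Angpt2 (r = 0.417), and Angpt1 had r = 0.366 (adjusted p = 0.0525). Leaving out the 4 libraries, 2 of 4 remained called, and Angpt2 had adjusted p = 0.0907.

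The counts of other cell types against Cdh5 stand beside 73.1% of all genes called positive in the larger part (median r = 0.41) and 40.3% in the smaller (median r = 0.263). Fibroblast genes were called in 6 of 6 and 5 of 6, with Col3a1 at r = 0.702 and 0.85, and smooth muscle genes in 4 of 5 and 4 of 5, with Tagln at r = 0.129 (no call) and 0.692. Leaving out the 4 libraries, 5 of 6 fibroblast, 2 of 5 smooth muscle, 5 of 5 leukocyte and 1 of 2 platelet genes were called, where 7.24% of all genes were. Red cell genes were called in 4 of 4 and 0 of 4, with Hbb-bs at r = 0.543 and 0.142, and of the platelet genes 2 of 2 and 1 of 2 tested, with Pf4 at r = 0.661 and 0.731. Proliferation genes were called in 0 of 6 in each part by limma, with r of -0.00635 to 0.132 and of -0.286 to 0.0756, and after rescaling 2 of 6 were called negative in the larger part. Of the neuroendocrine genes 3 of 6 were positive in the larger part, Chga among them over its separate 72 and 7 libraries, while in the smaller part 3 were negative and 1 positive, and none was called by limma without the 4 libraries. Of the prostate luminal genes Tgm4 was negative (r = -0.389) and Msmb positive (r = 0.327) in the larger part, and in the smaller 2 were positive and 1 negative, with none called without the 4 libraries.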

How the data were processed

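Total RNA of 115 prostate libraries was sequenced by the authors (TRIzol and RNeasy, Ribo-Zero Gold, TruSeq RNA v2), in read pairs of 126 bases per the labels. Reads were trimmed by the authors (Trimmomatic) and quantified with RSEM against a transcriptome in which Seqnature had placed the alleles of both strains. The submitters' processing notes name Bowtie2 2.2.5, RSEM 1.2.20, CASAVA 1.8.2 and GRCm38. The authors deposited TPM, which sum to 1000000 in each library and keep no depth, so no count model or interval was used. Gene names and positions came from GENCODE M21, which held 45136 of the 45699 genes. All libraries were used, as the sources do not name those behind the smaller n of the paper.

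Values were taken as log2(TPM + 1). Genes averaging 1 TPM or more were tested. Libraries were split in 2 parts where 2 normal components in place of 1 brought a BIC fall of over 10, Ashman D exceeded 2 and each part had at least 6 libraries. For all libraries the BIC fell by 196 and D was 6.1. The 4 libraries within the smaller part (BIC fall 11.9, D 6.08) are under that minimum and were therefore left out only as an alternative chosen after seeing the data. For Chga in the larger part and Vwf in the smaller part the BIC fell by 43.5 and 11.5.

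Within a part every gene was fitted by limma 3.58.1 (R 4.3.3) on Mki67, Chga, Col1a1, Cdh5 or Vegfa, with Benjamini-Hochberg adjusted p under 0.05 over all genes tested. Both signs count as calls. Pearson's r and Spearman's rho of the members were tested two-sided with 100000 permutations, and r was repeated after dropping the 2 libraries farthest from the x-axis median. Where adjusted p-values are given without a tool they are limma's. The libraries are separate mice per the labels, and litter or batch was not given.

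The members and all lists were chosen with earlier results of these data known. Named are the 10 members, the 3 comparison genes, up to 4 genes of highest mean per list, the 5 genes most like Cdh5 and Vegfa, and genes said to be picked after their values were seen, which include the called genes named from a list. Alternatives were a pseudocount of 0.1, rescaling without 20 genes, median-of-ratios scaling, no filter, ranks, the share of the 20 genes as covariate, and libraries left out. On simulated data 73 of 100 genes with r = 0.4 and 100 of 100 with r = 0.7 were recovered at n = 79. Correlations and permutations ran in scipy 1.17.1 and numpy 2.4.6, mixtures in scikit-learn 1.9.0, and plots in matplotlib 3.10.9 (pandas 2.3.3, Python 3.11.15).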

Additional observations from a re-analysis of the deposited data

How the results depend on the processing

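Over the alternatives, 553 of the members' values kept their sign and side of the threshold, 19 gained a call, 44 lost one, 48 changed sign with no call under either setting and 16 changed sign with a call. No paired analysis was possible because all libraries carry the same group label and no replicate numbers. TPM keeps no depth, and the number of libraries limits which small relations can be seen. Causes were not tested.

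The following are percentages of the genes tested that were called. Against Mki67 they were 74.3% in the larger part, 37.6% after rescaling without 20 genes, 42.2% under median-of-ratios scaling (3192 positive, 2879 negative genes) and 30.2% with the share of the 20 genes as covariate. In the smaller part they were 44.9%, 60.6% after rescaling and 39.7% without the filter on low values, which tests many more genes. Against Chga they were 0.869% in the larger part, then 1.74%, 6.02% and 0.76% after rescaling, under median-of-ratios and without the filter, and 0.568% without the 2 farthest libraries, and 34.1% in the smaller part, then 1.26% by ranks, 13.6% with the covariate, 8.52% without the 2 farthest and 9.3% without the 4 libraries apart. Against Col1a1 they were 56.5% in the larger part (38.2% without the filter; 2455 positive and 3511 negative genes under median-of-ratios) and 58.4% in the smaller, where the covariate gave 25.6% and leaving out the 4 libraries 24.3%. Against Cdh5 they were 75.1% in the larger part (52.7% without the filter; 3791 positive and 5484 negative genes under median-of-ratios) and 50.1% in the smaller, then 17.6% with the covariate, 21.8% without the 2 farthest and 7.29% without the 4 libraries. Against Vegfa they were 76.7% in the larger part, then 4.34%, 8.31% and 5.9% after rescaling, under median-of-ratios and with the covariate. For the smaller part they were 0.308%, then 0.139%, 0.16%, 0.0621%, 0.103% and 0.63% after rescaling, under median-of-ratios, without the filter, by ranks and with the covariate. The separation into 79 and 36 libraries did not change after rescaling or without the listed genes.

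Against Mki67 in the larger part Pecam1, Tek, Eng and Vwf turned to r of -0.282, -0.298, -0.402 and -0.321 under median-of-ratios scaling, and Pecam1, Kdr, Tek, Tie1, Eng and Vwf to -0.362, -0.334, -0.396, -0.343, -0.312 and -0.298 with the covariate. Against Chga in the smaller part Cdh5, Flt1, Tek, Tie1 and Eng turned to 0.0963, 0.162, 0.241, 0.209 and 0.109 without the 4 libraries. Emcn against Cdh5 in the larger part turned to -0.0337 under median-of-ratios.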

Other observations

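The 7 libraries with 1.19 to 4.84 TPM of Chga in the larger part were W4219, W4360, W5001, W4492, W4443, W4292 and W5003. In that order Cdh5 was 5.2, 3.55, 3.94, 3.4, 2.61, 3.45 and 3.38 TPM and Vegfa 16.54, 14.04, 17.14, 15.11, 31.87, 19.27 and 11.18 TPM. The median of all 79 was 1.59 TPM for Cdh5 and 17.14 TPM for Vegfa. These libraries were picked by a measured value, and were not tested against the others.

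The 4 highest Vegfa values were in W4498 at 253.55, W1103 at 233.17, W1118 at 188.99 and W1182 at 177.32 TPM. W1103 held the lowest Kdr and Tek of the smaller part, at 0.18 and 0.06 TPM, while W1118 held the highest Flt1, at 6.61 TPM.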
